A study of Mus musculus with 22 samples.

Results

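The genes described here are 9 that colon crypts use against microbes or that mark deep crypt secretory cells: Reg4, Reg3b, Reg3g, Ang4, Lyz1, Lyz2, Lypd8, Pigr and Nos2. They were chosen by name from the 24421 genes of the count files, with earlier results of these data known. RNA-seq counts came from 22 libraries, each of cells sorted from the colon of wild type, untreated male C57BL/6N mice aged 5 to 7 weeks. Every sort was on live Epcam+ cells without Cd31 and Cd45. The stem cells (Stem, 3 libraries) had the highest Cd44, low Cd24 and no Ckit. The absorptive progenitors (AbsPro, 3 libraries) had medium to high Cd44, low Cd24 and no Ckit. The gate called SecPDG (4 libraries), for secretory progenitors, deep crypt secretory cells and goblet cells, had high Cd44, medium Cd24 and medium Ckit. The text of the study's paper instead gives this gate medium Cd44, and reports Kit protein as detectable in tuft cells alone. Tuft cells (Tuft, 5 libraries) were Ckit+ with high Cd24, enterocytes (Ent, 5 libraries) had low or no Cd44 and no Cd24, and enteroendocrine cells (EEC, 2 libraries) had low or no Cd44 with Cd24. Each Stem and AbsPro library came from 1 mouse and each other library from pooled mice, from separate sorts, so the spread between libraries includes differences between mice. Reads counted on genes ranged from 4122122 to 22462518 per library. A library is named by its cell type and number, and the numbers were not taken to pair libraries across cell types. The study's paper does not say whether libraries of different cell types shared mice.

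The colon holds dense bacteria, and its epithelium keeps them at a distance with mucus, secreted proteins and antibodies carried to the lumen. Reg3b and Reg3g are secreted C-type lectins that bind and kill bacteria, and Reg4 is a lectin of the same family that marks deep crypt secretory cells, the Kit+ cells that sit between stem cells at the colon crypt base as Paneth cells do in the small intestine. Ang4 is a secreted ribonuclease with antimicrobial activity, and Lyz1 and Lyz2 are lysozymes that cut the bacterial cell wall, the first known from Paneth cells and the second from macrophages. Lypd8 is a Ly6/uPAR family protein of the colonic surface that binds flagella, Pigr carries dimeric IgA across the cell, and Nos2 is the inducible nitric oxide synthase.

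Markers of the labelled cell types were checked first. The tuft cell genes Dclk1, Trpm5 and Pou2f3 were highest in Tuft (Dclk1 11726 to 31011 normalized counts, against 3.37 to 21.1 in Stem), Chga was highest in EEC (207142 to 717075) and Lgr5 in Stem (2006 to 3197). Normalized counts are counts divided by each library's effective size, which is its total times a TMM scaling factor, and multiplied by the mean effective size. Goblet cell markers did not keep to SecPDG: their sum over 8 genes was 726272 to 3071722 in SecPDG, 720518 to 1095442 in Tuft, 236035 to 692594 in Ent and 19418 to 32563 in Stem. Enterocyte markers did not keep to Ent either. Their sum over 8 genes was 53612 to 80757 in Ent, 76094 to 116477 in AbsPro and 13817 to 25514 in Stem. In EEC 1 and EEC 2 it was 23341 and 148848, the latter above every Ent library. Reads outside gene activity were gauged from 1516 genes of 5 families with no known use in the gut lining, olfactory and vomeronasal receptors among them. They took 53.8 to 93.1 CPM (counts scaled to library total) in Stem, 780.3 to 3924 in Ent and 626 and 7115 in the 2 EEC libraries, of which EEC 1 had the higher value and the fewest counts. Of the reads counted on genes or lying outside them, those outside made up 67.2 to 83.3% in Ent, 43.9 to 68.4% in Tuft, 45.6 to 48.9% in Stem, 41.3 to 47.2% in SecPDG, 45.9 to 49.9% in AbsPro and 89.9% and 64.9% in EEC 1 and EEC 2. In sorted bulk samples, fewer cells of a type and less RNA per cell cannot be told apart.

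The genes lie on 6 chromosomes, and both pairs of close relatives sit near each other. On the mm10 build, Reg3b (chr6:78370657-78373466) and Reg3g (chr6:78466269-78468872) are the ends of a cluster on chromosome 6 that also holds Reg3d, Reg3a, Reg2 and Reg1, and Lyz2 (chr10:117277331-117282321) and Lyz1 (chr10:117287797-117292868) are side by side on chromosome 10. The others are Reg4 (chr3:98222156-98236748), Ang4 (chr14:51763878-51773590), Lypd8 (chr11:58379043-58390728), Pigr (chr1:130826684-130852249) and Nos2 (chr11:78920787-78960254). RefSeq promoters on GRCm38.p6, from 250 bases before to 50 bases after each start, were matched by symbol for 8 of the 9 genes, with 2 starts for Lypd8. The 30 bases that end 11 bases before the start are given for the secreted proteins, 5′ to 3′ on the gene's strand, because they show how alike the paired genes are where transcription begins. Capitals mark TATAAA or the run of like letters at its place, picked by eye except for TATAAA:
Reg3b: tcaaattctgtTATAAAaacacagtcatct
Reg3g: cctcaagtcctacTATAAAaacagtcatct
Lyz1: cttggaggatgcTTAAATAgcaggcatgct
Lyz2: cttggaggatgcTTAAATAgcaggcatgct
Reg4: acaagaaggTATAAGagctgcaggactcta
Ang4: cacacgagcacTATATAttaccagcctgtg

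The windows lie at chr6:78370845-78370874 (+ strand) for Reg3b, chr6:78468885-78468914 (- strand) for Reg3g, chr10:117292879-117292908 (- strand) for Lyz1, chr10:117282283-117282312 (- strand) for Lyz2, chr3:98222116-98222145 (+ strand) for Reg4 and chr14:51773601-51773630 (- strand) for Ang4. The windows of Lyz1 and Lyz2 are the same in every letter, and their promoters match in 82.5% of aligned positions. Those of Reg3b and Reg3g match in 69.0%, and both hold TATAAA, with its first letter 29 bases before the start in Reg3b and 27 in Reg3g. Searched on both strands, TATAAA stands somewhere in 13.6% of the 32851 RefSeq promoters. The marked letters TTAAATA of the lysozymes, TATAAG of Reg4 and TATATA of Ang4 stand in 4.5%, 7.4% and 5.7% of them. The STAT motif TTCNNNGAA, in 8.3% of all promoters, was found in those of Reg3b, Ang4 and Pigr, and not in those of Reg3g, Reg4, Lyz1, Lyz2 and Lypd8. The E box CAGNTG, in 51.4% of all promoters, was found in all of these but Reg3g.

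Reads of the related genes are not equally easy to tell apart. The coding sequences of Lyz1 and Lyz2 match in 95% of positions, and 24 of the 1164 stretches of 100 bases in the GENCODE transcript of Lyz1, the length of a read, occur letter for letter in that of Lyz2. Reg3b and Reg3g match in 76.7% of coding positions and share 0 such stretches. The 30 coding bases at which the lysozymes differ most, from base 103 of the coding sequence, are given, since a read that covers them can be placed on one gene, with differing letters in capitals:
Lyz1: atggAtggctacCGtggTgtcaAGctggcT
Lyz2: atggCtggctacTAtggAgtcaGCctggcC

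Across cell types the genes fell into different patterns rather than one. Reg4 and Ang4 were high in SecPDG and Tuft, Reg3b, Reg3g and Lypd8 were highest in Ent, Lyz1 was highest in Tuft, and Pigr was high in every cell type, with its lowest mean in EEC. Levels of different genes can be compared only per length: per kilobase of exon, the mean normalized counts in SecPDG were 161739 for Reg4, 40471 for Ang4 and 29603 for Pigr. In Ent, on the same scale, Lypd8 led with 46691, ahead of Pigr with 15292, Reg4 with 7183 and Ang4 with 6668. In Stem the order was Pigr with 19925, Lypd8 with 6956 and Reg4 with 2918, and the other 6 genes were at or under 99.8.

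**Figure D1:**
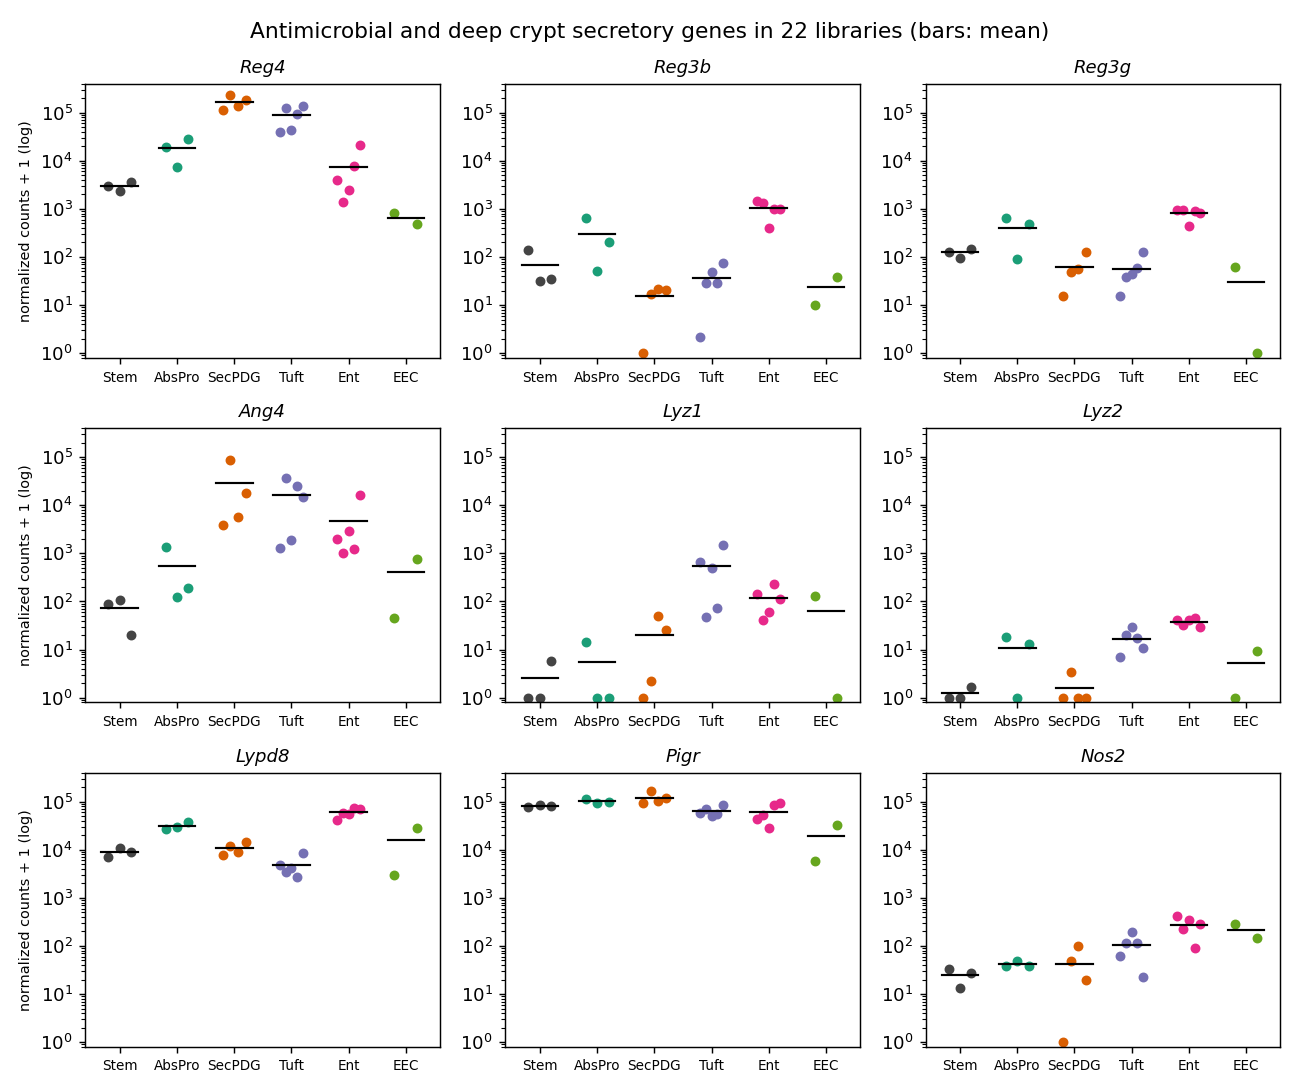
Normalized counts plus 1 (log axis) of each of the 9 genes in the 22 libraries, 1 point a library, by cell type, with a bar at the mean of each cell type. Reg4 and Ang4 stand highest in SecPDG and Tuft, Reg3b, Reg3g and Lypd8 in Ent, and Lyz1 in Tuft, while Lyz2 stays under 50 in every library.

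Each cell type was compared with Stem to ask which of the genes change as stem cells give rise to it. A gene was called where edgeR's quasi-likelihood test gave a Benjamini-Hochberg adjusted p under 0.01 and the gene averaged 50 normalized counts or more across the 22 libraries. All 9 genes passed the filter on low counts, but Lyz2, with a mean of 13.9, could not be called by this rule. In AbsPro, 0 of 9 were called, where 0.588% of the 22781 genes tested were, and Reg3b and Reg3g had adjusted p-values of 0.0185 and 0.0505. In SecPDG, 2 of 9 were called (Reg4 and Ang4), where 4.97% of all genes were. In Tuft, 3 of 9 were called (Reg4, Ang4 and Lyz1), against 12.1% of all genes. In Ent, 6 of 9 were called (Reg3b, Reg3g, Ang4, Lyz1, Lypd8 and Nos2), against 22.2%, and in EEC 1 of 9 (Nos2), against 19.9%. Every one of these calls was an increase over Stem. Of the 9 genes all but Lyz2 could be called. Over all genes, 22781 were tested, and 13180 besides the 9 had the mean of at least 50 that a call needs. The counts of the 9 and the shares of all genes thus do not compare like with like. Shares of the genes that could be called would be higher. The median log2 fold change of the 9 genes was 1.79 in AbsPro and 0.82 in EEC, beside 0 and 0.68 over all genes tested. It was 0.80 in SecPDG, 2.04 in Tuft and 3.52 in Ent, beside 0.004, 0.83 and 1.17 over all genes. The count of 0 in AbsPro depended on single libraries. Without AbsPro 2, the lowest AbsPro library for Reg4, Reg3b, Reg3g and Ang4, Reg3b (adjusted p = 0.00112) and Reg3g (adjusted p = 0.00255) were called, and without Stem 1 Reg3b was (adjusted p = 0.00978). Unadjusted p-values of all genes were under 0.05 for 2074 in this comparison, and DESeq2 called 1 of the 9. The scaling set a common shift: over genes with a mean of at least 50, the median log2 fold change against Stem was -0.299 in Ent and -0.305 in EEC with TMM factors, and 0.348 and 0.479 once DESeq2's factors replaced them in edgeR. Differences of that order in either cell type hung on the scaling.

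**Figure D2:**
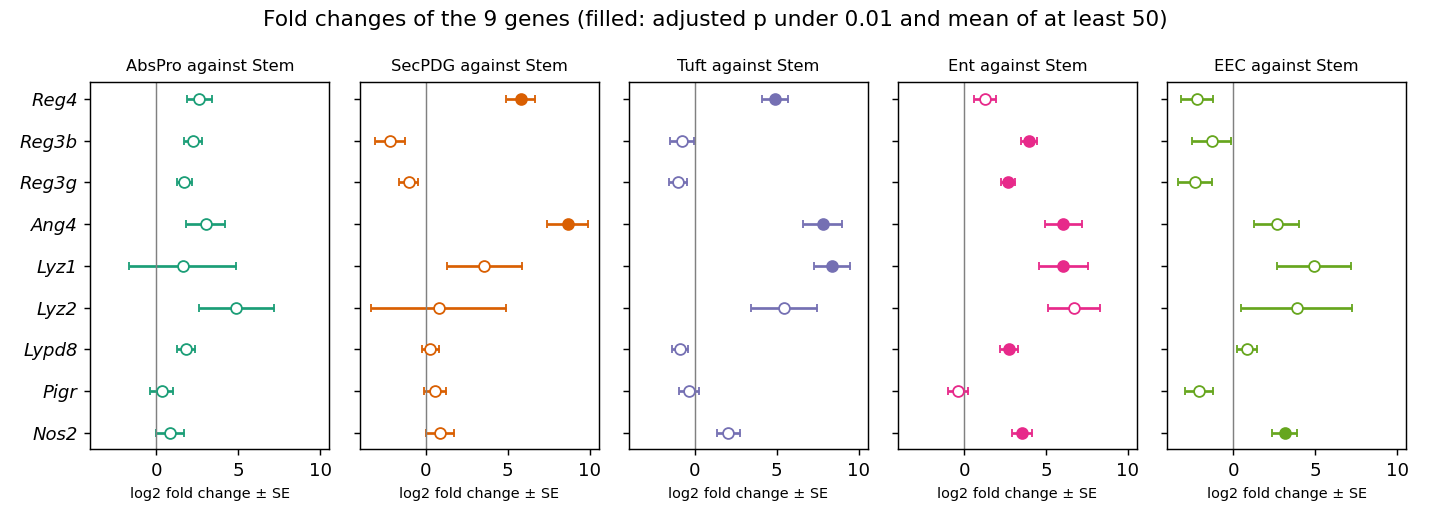
Log2 fold change of each gene against Stem with its SE (bars), 1 panel a cell type. Filled points were called; Reg4 and Ang4 are filled in SecPDG and Tuft, and 6 genes are filled in Ent.

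By mean level, neighbouring cell types in the order seldom differed by the call rule. For Reg3b the order was Ent, AbsPro, Stem, Tuft, EEC and SecPDG, and only Ent and AbsPro differed among neighbours. For Reg3g it was Ent, AbsPro, Stem, SecPDG, Tuft and EEC, with no neighbours that differed. Ang4 ran from SecPDG through Tuft, Ent, AbsPro and EEC to Stem, and only Ent and AbsPro differed. Lyz1 ran from Tuft through Ent, EEC, SecPDG and AbsPro to Stem, and only Tuft and Ent differed. The orders of Lypd8 (Ent, AbsPro, EEC, SecPDG, Stem, Tuft), Pigr (SecPDG, AbsPro, Stem, Tuft, Ent, EEC) and Nos2 (Ent, EEC, Tuft, SecPDG, AbsPro, Stem) held no neighbours that differed by the rule.

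Reg4 was the highest of the 9 genes per kilobase in both SecPDG and Tuft. It was at 113396, 231644, 135028 and 180476 normalized counts in the SecPDG libraries and at 39137, 127127, 43545, 95715 and 136535 in the Tuft libraries. In Stem it was at 3025, 2358 and 3556, so that no library of either gate came near a Stem library. Against Stem, Reg4 rose in SecPDG (log2 fold change 5.79 ± 0.87 (SE), adjusted p = 1.25e-06) and in Tuft (log2 fold change 4.89 ± 0.82 (SE), adjusted p = 7.68e-06). The AbsPro libraries, at 19112, 7467 and 28131, were above all 3 Stem libraries, with a difference that missed the threshold (log2 fold change 2.61 ± 0.77 (SE), adjusted p = 0.0742) and passed it with DESeq2's size factors in edgeR (adjusted p = 0.00902). Ent libraries spread widely, at 3965, 1412, 2416, 7829 and 21046, and overlapped Stem, with Ent 5 the highest. EEC was lowest, at 819 and 483, below every Stem library (adjusted p = 0.0522). In the order SecPDG, Tuft, AbsPro, Ent, Stem, EEC, no cell type differed from its neighbour by the call rule, while SecPDG was above AbsPro (log2 fold change 3.18 ± 0.76 (SE), adjusted p = 0.00312) and Ent below Tuft (log2 fold change -3.60 ± 0.61 (SE), adjusted p = 1.03e-05). Without AbsPro 1 or AbsPro 2, the SecPDG difference from AbsPro had adjusted p-values of 0.0112 and 0.0722, and without Ent 5 the Ent difference from Tuft was -4.50 on the log2 scale.

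Ang4 shared the gates of Reg4 but varied far more between libraries of one cell type. In SecPDG it was at 3966, 87382, 5731 and 17696 normalized counts, and SecPDG 2 stood far above the other 3. In Tuft it was at 1268, 36355, 1925, 25576 and 14675, with Tuft 2, 4 and 5 above Tuft 1 and 3. Stem libraries had 86.4, 107 and 18.9, below every library of both gates. Ang4 rose in SecPDG (log2 fold change 8.66 ± 1.23 (SE), adjusted p = 3.53e-07), in Tuft (log2 fold change 7.82 ± 1.19 (SE), adjusted p = 1.06e-06) and in Ent (log2 fold change 6.05 ± 1.14 (SE), adjusted p = 2.69e-05), where the libraries were at 1984, 1003, 2910.1, 1234 and 16507 and Ent 5 was the highest. Without SecPDG 2 the rise in SecPDG was 7.08 on the log2 scale, and without Ent 5 that in Ent was 4.65. Without Stem 3, the lowest Stem library, the rises were 8.07 in SecPDG and 5.35 in Ent, and all 4 of these values were still called. Every AbsPro library (1339, 122 and 193) was above every Stem library, and AbsPro 1 lay within the Ent range. Of the EEC libraries (45.2 and 780.2), EEC 1 lay within the Stem range and EEC 2 between Stem and Ent. Neither AbsPro nor EEC was called against Stem (adjusted p = 0.301 and 0.102).

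The libraries highest in Ang4 were among those highest in goblet cell markers within SecPDG and Ent, but not within Tuft. The marker sum was 3071722 in SecPDG 2, against 726272, 730108 and 1232878 in the other SecPDG libraries, and 692594 in Ent 5, against 236035 to 377321 in the other Ent libraries. In Tuft 1, where Ang4 was lowest, the sum was 1095442, above the 1003496 of Tuft 2, where Ang4 was highest. Against Stem, 8 of the 8 goblet markers were called higher in SecPDG, 7 in Tuft and 6 in Ent. The part of goblet cells in the levels of Ang4 and Reg4 was not tested. Per kilobase, Ang4 was 0.0504 to 0.543 times Reg4 in the SecPDG libraries and 0.227 to 1.74 times in the Ent libraries, with the ranges of these ratios overlapping.

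**Figure D3:**
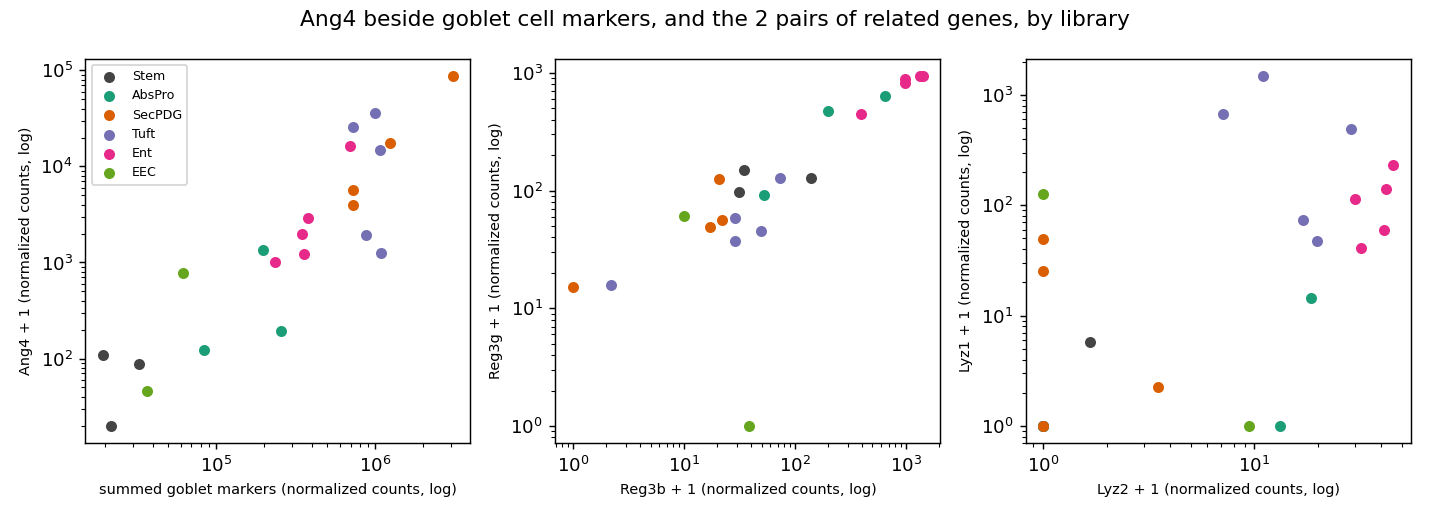
Left, Ang4 plus 1 against the sum of 8 goblet cell markers; middle, Reg3g plus 1 against Reg3b plus 1; right, Lyz1 plus 1 against Lyz2 plus 1; normalized counts on log axes, 1 point a library, coloured by cell type, with points at 0 drawn at 1. SecPDG 2 is highest in both Ang4 and goblet markers, the Ent libraries lie at the top right for the Reg3 genes, and 3 Tuft libraries are high in Lyz1 with low Lyz2.

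Reg3b and Reg3g, the bactericidal lectins, were highest in enterocytes. Reg3b was at 1421, 1326, 392, 985 and 973 normalized counts in Ent and at 138, 30.1 and 33.7 in Stem. Reg3g was at 938, 941, 444, 882 and 819.7 in Ent and at 126, 96 and 149 in Stem. Every Ent library was above every Stem library for both genes, and Ent 3 was the lowest of the 5 for both. Reg3b rose in Ent (log2 fold change 3.97 ± 0.50 (SE), adjusted p = 8.05e-09, and 4.99 without Stem 1, the highest Stem library), as did Reg3g (log2 fold change 2.70 ± 0.43 (SE), adjusted p = 1.91e-06). The secretory gates were at the other end. Reg3b was at 0, 16.2, 21.1 and 19.6 in SecPDG and Reg3g at 14.2, 48.5, 54.8 and 123, and the difference of Ent from SecPDG was 6.14 ± 0.61 (SE) on the log2 scale for Reg3b (adjusted p = 5.47e-12) and 3.73 ± 0.46 for Reg3g (adjusted p = 4.31e-09). Tuft had 1.22 to 72.8 of Reg3b and 14.7 to 126 of Reg3g, and Ent was above it for both (log2 fold change 4.73 ± 0.49 (SE), adjusted p = 9.05e-12 for Reg3b; log2 fold change 3.72 ± 0.43 (SE), adjusted p = 7.57e-10 for Reg3g). The lower levels of SecPDG and Tuft than of Stem were not called for either gene, with adjusted p-values from 0.146 to 0.407.

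The mean of AbsPro lay between those of Stem and Ent for both genes, and its libraries did not hold together. Reg3b was at 649.9, 51.2 and 199 and Reg3g at 635, 91.1 and 474, so that AbsPro 1 was highest and AbsPro 2 within or below the Stem range. AbsPro was above SecPDG in both genes (-4.42 ± 0.72 for SecPDG minus AbsPro in Reg3b, adjusted p = 8.86e-06; -2.74 ± 0.51 in Reg3g, adjusted p = 0.00011), and these calls were lost without AbsPro 1 (adjusted p = 0.0159 and 0.0114). Ent was above AbsPro for Reg3b (log2 fold change 1.72 ± 0.41 (SE), adjusted p = 0.000848) and missed the threshold for Reg3g (adjusted p = 0.0232). Without AbsPro 2 or AbsPro 3 the Reg3b difference was 1.22 and 1.31, no longer called, and without AbsPro 1 it was 2.87. EEC had 9.04 and 37.6 of Reg3b and 59.7 and 0 of Reg3g, below every Ent library in both (log2 fold change -5.28 ± 0.81 (SE), adjusted p = 1.6e-06; log2 fold change -5.04 ± 0.80 (SE), adjusted p = 4.12e-06). Per kilobase, Reg3g was 0.357 to 0.612 times Reg3b in the Ent libraries and 0.492 to 2.39 times in the Stem libraries, ranges that overlap. These ratios rest on the joined length of all annotated exons, 2114 bases for Reg3g and 1142 for Reg3b. Their coding sequences are 522 and 525 bases. Raw counts in Ent 1 to Ent 5 were 641, 820, 384, 773 and 592 for Reg3g and 971, 1156, 339, 864 and 703 for Reg3b. The log2 levels of the pair had a Pearson r of 0.78 over the 22 libraries, which share depth and cell type.

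Lyz1, the lysozyme of Paneth cells, was low in all gates but Tuft. Its normalized counts in Tuft were 665, 46.7, 494, 72.5 and 1481, with Tuft 1, 3 and 5 far above Tuft 2 and 4. In Stem they were 0, 0 and 4.72, which is 7 reads in all, every one in Stem 3. Ent had 139, 40.1, 58.9, 233 and 112, above all Stem libraries and overlapping the 2 low Tuft libraries. Lyz1 rose against Stem in Tuft (log2 fold change 8.37 ± 1.12 (SE), adjusted p = 3.44e-08) and in Ent (log2 fold change 6.07 ± 1.51 (SE), adjusted p = 0.000831). The call in Ent was lost without Stem 2 (log2 fold change 5.30, adjusted p = 0.0126), and with libraries thinned to the smallest, which left the mean of Lyz1 under 50, neither was called (adjusted p = 3.64e-05 in Tuft and 0.00863 in Ent). The rise in Tuft was 7.52 without Tuft 5 and 7.74 without Stem 2, still called, and without Stem 3 no Stem library has a read of Lyz1. SecPDG, the gate that Reg4 and Ang4 share with Tuft, had 0, 1.24, 48.9 and 24.5, and Tuft was above it (log2 fold change 4.80 ± 0.71 (SE), adjusted p = 1.25e-06), although Tuft 2 lay within the SecPDG range. Tuft was also above Ent (Ent minus Tuft -2.30 ± 0.50, adjusted p = 0.00047), which was lost without Tuft 5 (-1.45, adjusted p = 0.0486). The sum of 7 tuft cell markers was 48008, 45849 and 43336 in Tuft 1, 3 and 5 and 26019 and 69774 in Tuft 2 and 4, so that it did not separate them. Lyz1 in AbsPro (13.4, 0 and 0) and EEC (126 and 0) came from 1 library of each.

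Lyz2, the lysozyme of macrophages, was near the limit of detection. Raw counts were 28, 27, 35, 39 and 21 in the Ent libraries, 5, 15, 22, 14 and 12 in Tuft, 25, 0 and 13 in AbsPro and 0 and 7 in EEC. Stem had 1 read of Lyz2 in all and SecPDG 2. Per effective library size, the pooled counts of Ent were 162 (95% exact counting interval 28.7 to 6459) times those of Stem, and the pooled counts of Tuft were 31 (95% exact counting interval 8.25 to 261) times those of SecPDG. These intervals cover counting error only. The Ent libraries were close together, 29.1 to 44.5 normalized counts, and did not overlap those of any other cell type. The unexpressed families would give 6.28 to 22.8% of the Lyz2 level in Ent at its exon length and 7.6 to 39.5% in Tuft. For the Lyz1 level these shares were 0.0495 to 9.22% in Tuft, 1.15 to 16.9% in Ent and 9.73% in EEC 1. Markers of macrophages, where Lyz2 is known, were summed over 14 genes. The sums were 1675 to 2595 in SecPDG, 934 to 2359.9 in Tuft, 1134 to 1754 in Ent and 712 to 1071 in Stem. They were 818 to 987 in AbsPro and 2838 and 434 in EEC. The median log2 fold change of the 14 genes against Stem was -0.25 in AbsPro, -0.64 in SecPDG, 2.15 in Tuft, 3.10 in Ent and 2.39 in EEC. Over all genes tested it was 0, 0.004, 0.83, 1.17 and 0.68 in the same order. Against Stem, Adgre1, Csf1r and Mrc1 were called higher in Ent, C1qa in SecPDG, C1qa and Csf1r in Tuft and Adgre1 and Csf1r in EEC, and Cd14 was called lower in Tuft and EEC. C1qa was at 1202 to 2161 in SecPDG, 46.5 to 73.6 in Stem and 20.6 to 62.3 in Ent, and Cd14 at 443 to 676 in Stem and 136 to 443 in Ent. C1qb was at 0 in Stem and C1qc in AbsPro and SecPDG. The part of macrophages in the Lyz2 reads was not tested. Per kilobase, Lyz1 was 2.57 to 154 times Lyz2 in the Tuft libraries and 1.35 to 5.45 times in the Ent libraries, ranges that overlap.

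**Figure D4:**
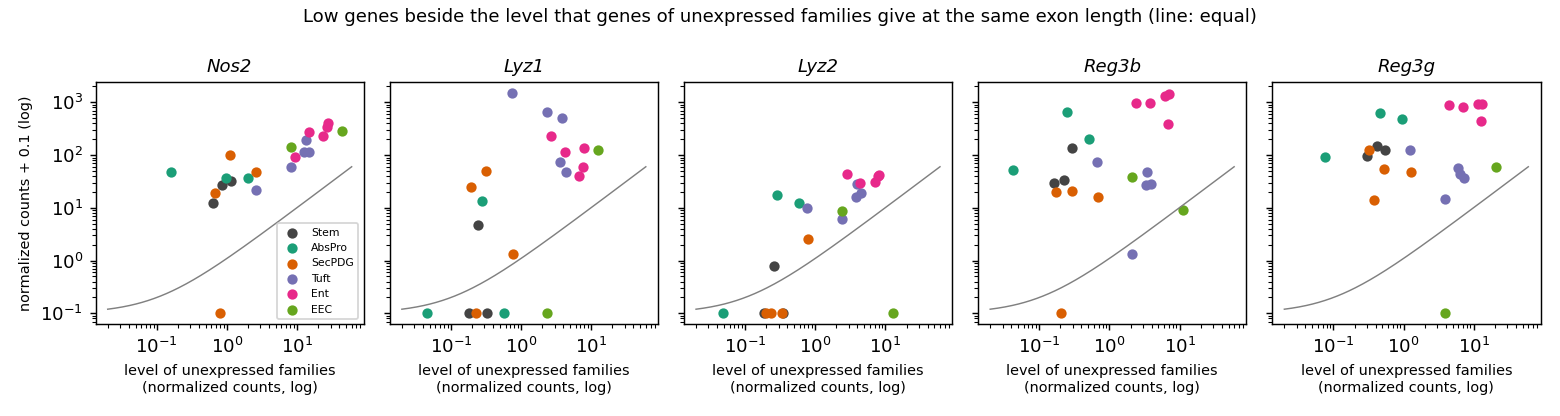
Normalized counts plus 0.1 of the 5 genes of low level against the level that genes of unexpressed families give at the same exon length in that library (both log axes, 1 point a library, coloured by cell type; line, equal levels with the same 0.1 added). Nos2 lies above that level in all libraries but SecPDG 1, where it has no reads, and the Ent points of Lyz2 lie nearer to the line than those of Reg3b and Reg3g.

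Lypd8, the flagella-binding surface protein, followed the absorptive lineage. It was at 42131, 58939, 54960.1, 73256 and 70468 normalized counts in Ent and at 26602, 29334 and 37015 in AbsPro, and the lowest Ent library was above the highest AbsPro library. Stem libraries were at 6909, 11091 and 8796, below all of these. Lypd8 rose in Ent against Stem (log2 fold change 2.75 ± 0.56 (SE), adjusted p = 8.01e-05). The difference of AbsPro from Stem missed the threshold (log2 fold change 1.79 ± 0.56 (SE), adjusted p = 0.115) and was called under each of the other 3 scalings, as was that of Ent from AbsPro (log2 fold change 0.95 ± 0.51 (SE), adjusted p = 0.0998). SecPDG was at 7615, 12033, 9097 and 14778, overlapping Stem, and Tuft was lowest at 4756, 3469, 4192, 2733 and 8564. Ent was above both (log2 fold change 2.46 ± 0.49 (SE), adjusted p = 6.03e-05 for SecPDG; log2 fold change 3.66 ± 0.47 (SE), adjusted p = 1.73e-08 for Tuft), and Tuft was below AbsPro (log2 fold change -2.70 ± 0.49 (SE), adjusted p = 3.74e-05). The 2 EEC libraries stood apart from each other, at 3026 and 28354, one at the level of Tuft and the other at that of AbsPro. Their summed enterocyte markers were 23341 and 148848, in the same order, beside 53612 to 80757 in Ent. The 3 libraries with the lowest Lypd8 were Tuft libraries and EEC 1.

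Pigr, the transporter of IgA, was high in every cell type. It was at 76854, 83768 and 79974 normalized counts in Stem, 113011, 91708 and 97777 in AbsPro and 94124, 162971, 102921 and 116592 in SecPDG. Tuft had 51188 to 85505 and Ent 28854 to 95532. AbsPro and SecPDG libraries were all above those of Stem, by 0.33 ± 0.69 and 0.57 ± 0.66 (SE) on the log2 scale, and neither was called (adjusted p = 1.0 and 0.778). EEC was lowest, at 5836 and 31876. EEC minus SecPDG was -2.66 ± 0.85 (adjusted p = 0.00837), and this call was lost without any 1 of the 4 SecPDG libraries (adjusted p from 0.0103 to 0.019). EEC minus Stem was -2.08 ± 0.84 (adjusted p = 0.0362), not called, and was called under the other 3 scalings and, at -3.78, without EEC 2. The spread over the libraries of a cell type was 4.32% of the mean in Stem and 46% in Ent.

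Nos2, the inducible nitric oxide synthase, was low throughout and highest in Ent. Its normalized counts were 414, 228, 348, 90.1 and 279.7 in Ent and 282 and 144 in EEC. Stem had 32.1, 12.2 and 26.9, and no Ent or EEC library overlapped it. Nos2 rose against Stem in Ent (log2 fold change 3.52 ± 0.61 (SE), adjusted p = 6.69e-06) and in EEC (log2 fold change 3.13 ± 0.77 (SE), adjusted p = 0.000856). The call in EEC was lost without EEC 1 (log2 fold change 2.47, adjusted p = 0.0536) and without Stem 2 (adjusted p = 0.0117). With libraries thinned to the smallest, the mean of Nos2 fell under 50 and neither was called (adjusted p = 0.000127 in Ent and 0.001 in EEC). Tuft had 59.8, 115, 197, 113 and 21.8, overlapping Stem through Tuft 5 (adjusted p = 0.0227), and AbsPro had 37.4, 48 and 37.5. SecPDG libraries ran from 0 to 100.2, and Ent was above them (log2 fold change 2.64 ± 0.53 (SE), adjusted p = 6.69e-05) with an overlap of Ent 4 and SecPDG 3. The unexpressed families would give 5.24 to 10.4% of the Nos2 level in Ent, 5.61 to 15.2% in EEC and 3.19 to 5.16% in Stem. These shares, like those for the lysozymes, rest on GENCODE exon lengths, which may differ from the annotation the reads were counted on. Reads that were not unique were left out of the counts. How far either moves the shares was not tested. Reads outside genes took a higher share in the same cell types: 67.2 to 83.3% in Ent, with Ent 1 and Ent 3, the highest in Nos2, at 83.3% and 82.3%, 89.9% and 64.9% in EEC 1 and EEC 2, and 45.6 to 48.9% in Stem. Markers of other cell types moved with Nos2 too. All 4 endothelial markers were called higher than in Stem in Ent, EEC and Tuft, with sums of 464 to 1158 in Ent, 1303 to 1858 in EEC and 74.3 to 164 in Stem. Of 8 stromal markers 4 were called higher in Ent and 4 in EEC, with sums of 737 to 1522, 2268 to 3384 and 95 to 256 in Ent, EEC and Stem. The 6 T cell markers summed to 212 to 660, 366 to 1658 and 87.1 to 161 in the same order. Of these, 0 were called in Ent or EEC, and only 1 had a mean of at least 50. Sums of 8 neutrophil markers were 229 to 518 in Ent, 752 and 227 in EEC 1 and EEC 2 and 8.96 to 88.7 in Stem. Among them Csf3r and Mpo were called higher in Ent and Mpo in EEC. The macrophage sums, given with Lyz2, were 2838 in EEC 1 and 434 in EEC 2. The part of these cells and of reads outside genes in the Nos2 levels was not tested.

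Of the 10 comparisons between cell types other than Stem, Ent against SecPDG gave the most calls among the 9 genes. The shares of all genes given beside them again count genes with a mean under 50, which could not be called. They do not compare like with like with the counts of the 9. Between Ent and SecPDG 6 of 9 genes were called, where 23.3% of all genes were. Reg3b, Reg3g, Lypd8 and Nos2 were higher in Ent, and Reg4 and Ang4 in SecPDG. The Ang4 difference (-2.60 ± 0.70) was lost without SecPDG 2 (-1.11, adjusted p = 0.129). Between Ent and Tuft 5 of 9 were called, against 8.43% of all genes: Reg3b, Reg3g and Lypd8 were higher in Ent, Reg4 and Lyz1 in Tuft. Between Tuft and SecPDG 1 of 9 was called (Lyz1), against 3.37%, and Reg4, Ang4, Reg3g and Pigr had adjusted p-values of 0.26, 0.359, 0.992 and 0.245. With AbsPro, 4 of 9 were called in SecPDG, against 3.72% of all genes, 5 of 9 in Tuft, against 8.13%, 4 of 9 in Ent, against 16.2%, and 4 of 9 in EEC, against 18.3%. In Ent these were Reg3b, Ang4, Lyz1 and Nos2, all higher than in AbsPro, and in Tuft Reg3b, Reg3g and Lypd8 were lower and Ang4 and Lyz1 higher. In EEC, Reg4, Reg3b and Reg3g were lower than in AbsPro and Nos2 higher. With EEC, 4 of 9 were called against SecPDG (Reg4, Ang4 and Pigr lower, Nos2 higher), where 21.2% of all genes were, 3 of 9 against Tuft (Reg4, Ang4 and Lyz1 lower), where 9.3% were, and 2 of 9 against Ent (Reg3b and Reg3g lower), where 4.69% were. Several of these calls rested on single libraries. Without AbsPro 2 or AbsPro 3, Ang4 (adjusted p = 0.0435 and 0.051) and Lyz1 (adjusted p = 0.0268 and 0.0327) were not called in Ent against AbsPro, and without Ent 5 Ang4 was not (adjusted p = 0.0646). Lyz1 in that comparison was also lost without AbsPro 1, Ent 1 or Ent 4. Without AbsPro 1, Reg3b was not called in Tuft (adjusted p = 0.0826) or in EEC against AbsPro (adjusted p = 0.0526). Without EEC 1, Nos2 was not called in EEC against AbsPro or SecPDG (adjusted p = 0.209 and 0.221), nor Ang4 against SecPDG or Tuft (adjusted p = 0.0117 and 0.0379). The form of the quasi-likelihood fit mattered as well. edgeR's earlier form, which was run first and set aside as an alternative once its calls had been seen, ended 16 calls among the 9 genes, turned no call and added none. Against Stem it ended 1, Nos2 in EEC (adjusted p = 0.0164). Against AbsPro it ended all 4 calls of Ent (adjusted p from 0.0188 for Lyz1 to 0.0577 for Reg3b), Reg3g in SecPDG (adjusted p = 0.0163), Ang4 in Tuft (adjusted p = 0.0101), and Reg3b and Nos2 in EEC (adjusted p = 0.0106 and 0.0626). Among the other comparisons it ended that of Lyz1 in Tuft against SecPDG, Ent and EEC (adjusted p = 0.0248, 0.186 and 0.201), Ang4 and Nos2 in Ent against SecPDG (adjusted p = 0.0242 and 0.0115), Nos2 in EEC against SecPDG (adjusted p = 0.0421) and Ang4 in EEC against Tuft (adjusted p = 0.0228).

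Genes of the same pathways were read from 8 lists, against Stem, as the number called higher and lower. The share of all tested genes called was 4.97% in SecPDG, 12.1% in Tuft, 22.2% in Ent and 19.9% in EEC, and genes with a mean under 50 could not be called. Of the 14 genes of deep crypt secretory cells, 13 rose and 0 fell in SecPDG and 11 rose and 0 fell in Tuft, with Kit in both and Cd24a in Tuft among them, whose proteins the sorts selected on. Spdef, a transcription factor of secretory cells, went from 61.5 to 239.9 normalized counts in Stem to 6024 to 7246 in SecPDG (log2 fold change 5.61 ± 0.46 (SE), adjusted p = 2e-13). Atoh1, the factor that sets the secretory fate, was at 5642 to 9208 in SecPDG against 174 to 265 (log2 fold change 5.06 ± 0.50 (SE), adjusted p = 1.23e-11). Spink4 rose in SecPDG (log2 fold change 5.54 ± 0.85 (SE), adjusted p = 1.96e-06), and Muc2, the main mucin of the colon, in Tuft (log2 fold change 5.79 ± 1.24 (SE), adjusted p = 0.000388). In Ent 6 of the list rose and 2 fell, and in EEC 1 rose and 1 fell, so that 92.9% of the list was called in SecPDG, 78.6% in Tuft, 57.1% in Ent and 14.3% in EEC.

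Other secreted defence genes moved with Reg4 and Ang4 in part. Of 13 tested genes in a mixed list of secreted antimicrobials, 4 rose and 1 fell in SecPDG, 2 rose and 1 fell in Tuft and 2 rose in Ent, and in EEC 1 rose and 1 fell. These are 38.5%, 23.1%, 15.4% and 15.4% of the list, beside 4.97%, 12.1%, 22.2% and 19.9% of all genes. Only 5 of the 13 could be called. Over all genes, 22781 were tested, and 13180 besides the 9 had a mean of at least 50. The shares of the list and of all genes thus do not compare like with like. Mptx1, a pentraxin, went from 24.9 to 419.9 in Stem to 23767 to 28826 in SecPDG (log2 fold change 7.24 ± 0.94 (SE), adjusted p = 3.63e-08). Retnlb, a goblet cell protein that kills bacteria, rose in SecPDG (log2 fold change 6.40 ± 0.75 (SE), adjusted p = 2.14e-09), and Zg16, a lectin that binds Gram-positive bacteria, rose in Ent (log2 fold change 5.14 ± 0.54 (SE), adjusted p = 8.58e-11). Pglyrp1, a peptidoglycan-binding protein, fell in EEC (log2 fold change -2.70 ± 0.54 (SE), adjusted p = 5.95e-05). Of the Paneth cell list, with 11 of 14 measured genes tested, Itln1 and Pla2g2a rose in SecPDG and Tuft and Itln1 in Ent. Itln1, an intelectin that binds microbial sugars, was at 1009 to 2840.1 in Tuft against 0 to 40.5 in Stem (log2 fold change 6.50 ± 0.81 (SE), adjusted p = 8.01e-09), and Pla2g2a, a bactericidal phospholipase, at 54.3 to 417 against 0 to 3.37 (log2 fold change 7.12 ± 1.19 (SE), adjusted p = 5.96e-06). Itln1 and Pla2g2a were the only genes of that list with a mean of at least 50. Of the Reg genes Reg1, Reg2, Reg3a and Reg3d, 0 of 4 reached that mean. Their counts summed to 74.1 to 144 in Ent, 44.9 and 186 in EEC and 17.6 to 88.3 in Tuft. In Stem, AbsPro and SecPDG the sums were 0 to 10.8, 0 to 15.9 and 0 to 16. Of the secreted ribonucleases, Rnase4 (log2 fold change 1.96 ± 0.39 (SE), adjusted p = 0.000232) and Ang (log2 fold change 1.89 ± 0.43 (SE), adjusted p = 0.00146) rose in SecPDG; they share a locus and some exons, so that their reads are not fully separate.

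The genes of nitric oxide and reactive oxygen split in 2 directions. In Ent 8 of 15 tested rose and 2 fell, and in EEC 6 rose and 4 fell. Nox1, the NADPH oxidase of the colon, was at 2123 to 2522 in Stem and 5.42 to 14.6 in EEC (log2 fold change -7.69 ± 0.78 (SE), adjusted p = 6.17e-12). Gch1, which makes the cofactor of nitric oxide synthases, rose in EEC (log2 fold change 4.43 ± 0.53 (SE), adjusted p = 1.28e-09), and the other synthases Nos1 (EEC, log2 fold change 3.67 ± 0.67 (SE), adjusted p = 1.23e-05) and Nos3 (Ent, log2 fold change 4.28 ± 0.90 (SE), adjusted p = 0.000122) rose from levels of 16.6 to 40.5 and 3.37 to 13.8 in Stem. Nos3 is known from endothelial cells, whose 4 markers, given with Nos2, were all called higher in Ent; their part was not tested. Of the list, 66.7% was called in Ent and in EEC alike. Of 13 genes with Ly6 or uPAR domains, relatives of Lypd8, 3 rose in SecPDG, 2 in Tuft and 3 in Ent, and 1 fell in EEC. These are 23.1%, 15.4%, 23.1% and 7.69% of the list, beside 4.97%, 12.1%, 22.2% and 19.9% of all genes. Only 4 of the list could be called, so that these shares do not compare like with like. Plaur, the urokinase receptor, rose in Ent (log2 fold change 5.97 ± 0.93 (SE), adjusted p = 9.57e-07), Lypd6b in Tuft (log2 fold change 4.55 ± 0.72 (SE), adjusted p = 2.16e-06) and Ly6a in Ent (log2 fold change 2.08 ± 0.43 (SE), adjusted p = 0.000113), and Ly6e fell in EEC (log2 fold change -2.58 ± 0.54 (SE), adjusted p = 0.000116). Of 23 genes that sense microbes or induce such defence, 0 rose and 1 fell in SecPDG, 1 rose and 4 fell in Tuft, 1 rose and 3 fell in Ent and 0 rose and 3 fell in EEC. These are 4.35%, 21.7%, 17.4% and 13% of the list, beside 4.97%, 12.1%, 22.2% and 19.9% of all genes. Of the 23 genes, 22 could be called, a larger part than of all genes, so that these shares do not compare like with like either. Il22ra1, the receptor chain for IL-22, was the one that rose in Ent. Nod1 fell in Ent (log2 fold change -1.84 ± 0.29 (SE), adjusted p = 1.44e-06), Tlr2 in SecPDG (log2 fold change -2.06 ± 0.54 (SE), adjusted p = 0.00739), and Tlr1 (log2 fold change -3.94 ± 0.88 (SE), adjusted p = 0.000285) and Tirap (log2 fold change -2.32 ± 0.62 (SE), adjusted p = 0.00204) in EEC. In AbsPro the lists gave 4 calls, Zg16, Atoh1, Dll1 and Spdef, all of them higher.

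The genes most alike in level across the 22 libraries were found by Pearson correlation of log2(normalized count + 1) over 13180 genes, as a description, since the libraries share cell types and depth. For Reg4 these were Retnlb (r = 0.98), Agr2 (r = 0.98) and Pdia5 (r = 0.97), and for Ang4 Clca1 (r = 0.94), Pnliprp2 (r = 0.93) and Tpsg1 (r = 0.90). The closest to Reg3b were Slfn4 (r = 0.91), Gm10516 (r = 0.88) and Areg (r = 0.87), and to Reg3g Slc40a1 (r = 0.94), Cldn8 (r = 0.92) and Lrrfip1 (r = 0.90). Lypd8 was most like Naip1 (r = 0.97), Ahnak (r = 0.97) and Prdx6 (r = 0.95), and Pigr most like Stard4 (r = 0.97), Slc25a3 (r = 0.97) and Slain2 (r = 0.97). For the genes of low level the values were Tekt5 (r = 0.90), Notch4 (r = 0.87) and Wnt5b (r = 0.85) with Lyz1, Rdx (r = 0.87), Apobec1 (r = 0.86) and Clic5 (r = 0.84) with Lyz2 and Tmtc1 (r = 0.94), Hc (r = 0.91) and Ksr2 (r = 0.90) with Nos2. Within the set of 9, the highest r values were 0.78 between Reg3b and Reg3g, 0.75 between Reg3b and Lypd8 and 0.73 between Reg4 and Ang4, and the lowest was -0.51 between Pigr and Nos2.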

How the data were processed

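RNA of sorted colon cells was made into libraries with a low-input kit and sequenced as paired-end reads of 100 bases. The authors aligned the reads to mm10 with STAR 2.5.2a and counted them per gene with HTSeq 0.6.1p1 without regard to strand, per the labels and the study's methods, so a gene and an overlapping antisense gene cannot be separated. FastQC 0.11.7 and SAMtools 1.3 are also named in the submitters' processing notes. The deposited values are raw counts per gene, with no normalization. Rows that name no gene (reads outside genes, ambiguous or not unique) held 53.9 to 91.6% of all entries per library and were left out. Library totals, from 4122122 to 22462518, set the precision of low genes.

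Counts were analysed in R 4.3.3 with edgeR 4.0.16 (filterByExpr, TMM factors, quasi-likelihood fit in its newer form) over all 22 libraries in 1 model with cell type as the only term, and 15 comparisons were drawn from it. Adjusted p-values are Benjamini-Hochberg values over the 22781 genes tested in each comparison. A gene was called at an adjusted p under 0.01 with a mean of at least 50 normalized counts. The newer form of the fit was taken as the main one after both had been run, because the first run with the older default gave fewer calls than earlier work on these data; the older form is given as an alternative. DESeq2 1.42.0 was a further alternative, with other scalings, filters, thinning, the replicate number as a block and each library left out in turn. Tables were made in Python 3.11.15 (pandas 2.3.3, scipy 1.17.1), with figures by matplotlib 3.10.9 and arrays by numpy 2.4.6. Positions and transcripts are from GENCODE M21 and promoters from RefSeq on GRCm38.p6. Named related genes were the up to 4 called genes with the largest change in each list whose libraries did not overlap those of Stem, 3 most alike genes were named for each member, and Il22ra1 and the genes of small counts were named after their values were seen. The members and lists were chosen with earlier results of these data known.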

Additional observations from a re-analysis of the deposited data

Results flagged for a closer look

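In groups of 4 or 5 libraries, 27 sets of values were tested for a library far from the rest, by the gap to its nearest neighbour relative to the whole range, and 4 had one, where chance gives about 1 in 20. Ang4 in SecPDG 2, at 87382 normalized counts, stood above the other SecPDG libraries at 3966 to 17696. Ang4 in Ent 5, at 16507, stood above the other Ent libraries at 1003 to 2910.1. Reg3g in Ent 3, at 444, was below the other Ent libraries at 819.7 to 941. Lyz2 in SecPDG 2, at 2.49 normalized counts from 2 reads, was the one SecPDG library with any read of the gene; with the other 3 at 0, a single read is enough to set a library apart, so this one says nothing beside the chance rate.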

How the results depend on the processing

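Over the 135 differences of the 9 genes, 1438 of 1611 values under other settings kept their direction and their side of the threshold, 57 lost a call, 99 gained one and 17, called under neither, changed sign or came to 0. No called difference turned under these settings. The counts of calls below differ from the reported ones by over 1.5 times, and where no construction is named the cause was not tested. With DESeq2's Wald test, the calls were 1 against Stem in AbsPro, 4 against Stem in EEC and 5 between EEC and Ent (of the 9), then 420 against Stem in AbsPro and 1856 against Stem in SecPDG (of all genes), then 7 against Stem in AbsPro (of the related genes). With DESeq2's size factors in edgeR, the calls were 2 against Stem in AbsPro, 3 against Stem in EEC and 5 between EEC and Ent (of the 9), then 228 against Stem in AbsPro (of all genes), then 8 against Stem in AbsPro (of the related genes). With scaling by library totals, the calls were 2 against Stem in AbsPro, 2 against Stem in EEC and 5 between EEC and Ent (of the 9), then 211 against Stem in AbsPro and 1872 against Stem in SecPDG (of all genes), then 8 against Stem in AbsPro (of the related genes). With upper quartile scaling, the calls were 1 against Stem in AbsPro, 2 against Stem in EEC and 5 between EEC and Ent (of the 9), then 207 against Stem in AbsPro (of all genes). With an adjusted p under 0.05, the calls were 1 against Stem in AbsPro, 2 against Stem in EEC and 5 between EEC and Ent (of the 9), then 272 against Stem in AbsPro, 1712 against Stem in SecPDG and 4483 against Stem in Tuft (of all genes), then 28 against Stem in EEC (of the related genes). With only the 2 cell types compared in the fit, the calls were 2 against Stem in AbsPro, 0 against Stem in EEC, 1 between EEC and AbsPro, 3 between Tuft and SecPDG and 2 between EEC and SecPDG (of the 9), then 456 against Stem in AbsPro, 2178 against Stem in SecPDG and 1468 against Stem in EEC (of all genes), then 12 against Stem in AbsPro and 5 against Stem in EEC (of the related genes). With the replicate number as a block, the calls were 1 against Stem in AbsPro (of the 9), then 209 against Stem in AbsPro (of all genes). With libraries thinned to the smallest, the calls were 0 against Stem in EEC, 1 between Ent and AbsPro, 0 between Tuft and SecPDG and 2 between EEC and SecPDG (of the 9), then 63 against Stem in AbsPro, 1415 against Stem in Tuft, 2858 against Stem in Ent and 2977 against Stem in EEC (of all genes). With the earlier quasi-likelihood fit, the calls were 0 against Stem in EEC, 0 between Ent and AbsPro, 2 between EEC and AbsPro, 0 between Tuft and SecPDG and 1 between EEC and Tuft (of the 9), then 83 against Stem in AbsPro, 707 against Stem in SecPDG, 1468 against Stem in Tuft and 3082 against Stem in Ent (of all genes), then 2 against Stem in AbsPro (of the related genes). With no minimum mean, the calls were 9994 against Stem in Ent and 7646 against Stem in EEC (of all genes), then 47 against Stem in Ent (of the related genes). With 1 library left out, the counts ran over 0 to 2 against Stem in AbsPro, 0 to 2 against Stem in EEC, 1 to 4 between SecPDG and AbsPro, 1 to 4 between Ent and AbsPro, 2 to 5 between EEC and AbsPro, 2 to 5 between EEC and SecPDG and 2 to 4 between EEC and Ent (of the 9 genes), over 53 to 164 against Stem in AbsPro and 1690 to 3310 against Stem in Tuft (of all genes), over 1 to 4 against Stem in AbsPro (of the related genes). The difference of Lypd8 between EEC and SecPDG, 0.53 on the log2 scale, ran from -1.85 without EEC 2 (edgeR adjusted p = 0.00888) to 1.19 without EEC 1. The share of calls that were higher than Stem was 48.4% in Ent and 54.2% in EEC, and 75.6% and 77.5% with DESeq2's size factors; in SecPDG it was 68.0%, and 44.2% with library totals. Replicate numbers were not taken to pair the libraries. Same-numbered libraries of 2 cell types had a median correlation of deviations of 0.002, with 14 of 44 over 0.1. For libraries of different numbers the median was 0.007, with 46 of 154 over 0.1. The deviations were taken from means of few libraries, so these values cannot decide whether cell types shared mice. The replicate block changed no other count beyond 1.5 times. The lone EEC library left when the other is dropped is assumed to vary as the other cell types do. Low totals limit Lyz1, Lyz2 and Nos2 most.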
